A study of Mus musculus with 11 samples.

Results

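Laminins are the proteins that give a basement membrane, the sheet under an epithelium, its first network. Each is a heterotrimer of an α, a β and a γ chain that wind into a coiled coil inside the cell, and a laminin is named by the numbers of its chains, so that laminin-511 holds α5, β1 and γ1. The α chain carries the globular domains that bind integrins and dystroglycan on the cell surface. In the liver, bile ducts rest on a laminin-containing basement membrane, whereas hepatocytes along the sinusoids lack a continuous one. The chains described here are the 9 laminin genes Lama1, Lama2, Lama3, Lama4, Lama5, Lamb1, Lamb2, Lamb3 and Lamc1, chosen by their gene symbol in the platform annotation. All 9 were found, each as 1 feature, among 23185 features with a gene symbol.

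Expression was measured with 11 MoGene 2.0 ST arrays, which carry probes along whole mouse transcripts, in RNA from non-parenchymal liver cells sorted for the fluorescent protein YFP. The groups were YFP+ cells of mice on the CDE diet (n = 3), YFP+ cells of mice on the DDC diet (n = 3), YFP+ cells of untreated mice (YFP+ UTR, n = 2) and YFP- cells (n = 3), which the labels also give as untreated. CDE is a choline-deficient, ethionine-supplemented diet that injures hepatocytes, and DDC is a porphyrinogenic diet that injures bile ducts; both are used to bring out ductular reactions. The labels' protocol gives 5 weeks and 4 mice for the DDC diet and no duration for the CDE diet. It names no strain, sex, age or driver of the YFP label. Nothing in the labels ties the replicates of a group to different mice, so each p-value measures only the spread between these arrays, which may be technical.

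The titles call all 11 samples liver progenitor cells, and the markers separated them. All 8 measured cholangiocyte markers lay above background on every YFP+ array, where their mean log2 value was 9.61 to 10.13. On the 3 YFP- arrays that mean was 7.55, 4.77 and 4.69, with 8, 1 and 0 of the 8 markers above background. The 10 endothelial markers ran the other way, at a mean of 11.40, 9.57 and 9.91 on the YFP- arrays and 4.98 to 5.72 on the YFP+ arrays. The YFP- arrays differed from one another. Replicate 1 stood apart in its biliary markers and in its markers of stellate cells, fibroblasts and smooth muscle (mean 7.68, against 5.49 and 5.94 on the others). Its endothelial mean was also the highest. Replicate 2 stood apart in its leukocyte markers (mean 10.82, against 6.27 and 6.69 on the others) and replicate 3 in its macrophage markers (mean 11.64, against 8.98 and 8.59). Values without replicate 1 are given beside the comparison of untreated YFP+ with YFP- cells. Array values correlated at 0.98 to 0.991 among YFP+ arrays and at 0.888 to 0.925 among YFP- arrays. In bulk RNA of this kind, fewer cells of a type and less RNA per cell cannot be told apart.

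Values are on the log2 scale of the deposited table, where a difference of 1 is a 2-fold change. A level was called above background when it exceeded the 95th percentile of 1354 odorant and pheromone receptor features on that array, a bound of 5.16 to 5.51 across the arrays. Levels of different chains come from different probes and were not set against each other. A difference was called at a Benjamini-Hochberg adjusted p under 0.05 in limma, two-sided, over all 23185 genes.

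The α chains fell into those above background throughout the YFP+ arrays, Lama4 and Lama5, and those near or below background on all or most of them, Lama1, Lama2 and Lama3. Lama5, the α chain typical of epithelial basement membranes, read 8.14, 8.25 and 8.27 in YFP+ CDE, 8.85, 9.45 and 9.01 in YFP+ DDC, and 8.48 and 8.46 in YFP+ UTR. It read 7.05, 5.7 and 5.75 in YFP-. The lowest YFP+ array was above the highest YFP- array, and the 3 YFP+ groups did not overlap one another, in the order DDC, UTR, CDE from high to low. Lama4, an α chain known from endothelium and mesenchyme, read 9.77, 8.99 and 9.80 in YFP+ CDE, 9.40, 9.79 and 9.49 in YFP+ DDC, and 9.67 and 9.59 in YFP+ UTR. Its YFP- values were 9.54, 7.14 and 7.88. YFP- replicate 1 thus lay inside the YFP+ range, and the YFP+ groups overlapped.

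Lama1, an α chain of embryonic basement membranes, stayed between 4.61 and 4.96 on all 11 arrays and was above background on none. Lama2, the α chain of muscle and stromal basement membranes, stayed between 4.24 and 4.47 on 10 arrays and read 6.84 on YFP- replicate 1. On that array all 12 markers of stellate cells, fibroblasts and smooth muscle were above background, with a mean of 7.68, against 5.49 and 5.94 on the other YFP- arrays and 5.65 to 6.17 on the YFP+ arrays. Their part in the Lama2 value was not tested. Lama3, an α chain of epithelial basement membranes, read 5.41, 5.28 and 5.07 in YFP+ CDE, 5.48, 5.41 and 5.48 in YFP+ DDC, 5.51 and 6.0 in YFP+ UTR, and 6.82, 4.84 and 5.27 in YFP-. It was above the bound on both UTR arrays, 2 of 3 DDC arrays and 1 of 3 CDE arrays. Its values were close to the bound on every YFP+ array except UTR replicate 2, where it read 6.0 over a bound of 5.22.

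Among the β chains, Lamb3 varied most with diet relative to its replicate spread. Lamb3, a β chain of epithelial basement membranes, read 6.92, 7.12 and 7.2 in YFP+ CDE, 8.33, 8.48 and 8.64 in YFP+ DDC, and 7.56 and 7.2 in YFP+ UTR. Its YFP- values were 6.08, 5.12 and 5.24. All 3 DDC arrays lay above every other array, and 1 CDE array met the lower UTR array at the same rounded value. Lamb1, the β chain of laminin-111 and laminin-511, read 5.48, 5.01 and 5.90 in YFP+ CDE, 6.35, 7.40 and 6.64 in YFP+ DDC, 6.81 and 6.30 in YFP+ UTR, and 6.43, 5.05 and 5.36 in YFP-. Every CDE array was below every DDC and UTR array. Lamb2, the β chain of laminin-521, read 8.96, 8.81 and 9.20 in YFP+ CDE, 8.47, 8.85 and 8.87 in YFP+ DDC, 8.96 and 9.21 in YFP+ UTR, and 8.44, 6.01 and 6.78 in YFP-. It differed little among the YFP+ arrays, with the lowest mean in DDC.

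Lamc1, the γ chain shared by most laminins, read 8.69, 8.37 and 8.73 in YFP+ CDE, 8.74, 9.0 and 8.97 in YFP+ DDC, 9.07 and 8.97 in YFP+ UTR, and 8.94, 7.54 and 7.16 in YFP-. Again the first YFP- array lay within the YFP+ range. Lamc3, a γ chain outside the 9 and needed to name trimers, read 9.58, 8.58 and 9.45 in YFP+ CDE, 8.59, 8.12 and 8.72 in YFP+ DDC, 9.83 and 9.80 in YFP+ UTR, and 7.17, 5.35 and 5.84 in YFP-. Its UTR arrays were the highest of all and its YFP- arrays the lowest.

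**Figure D1:**
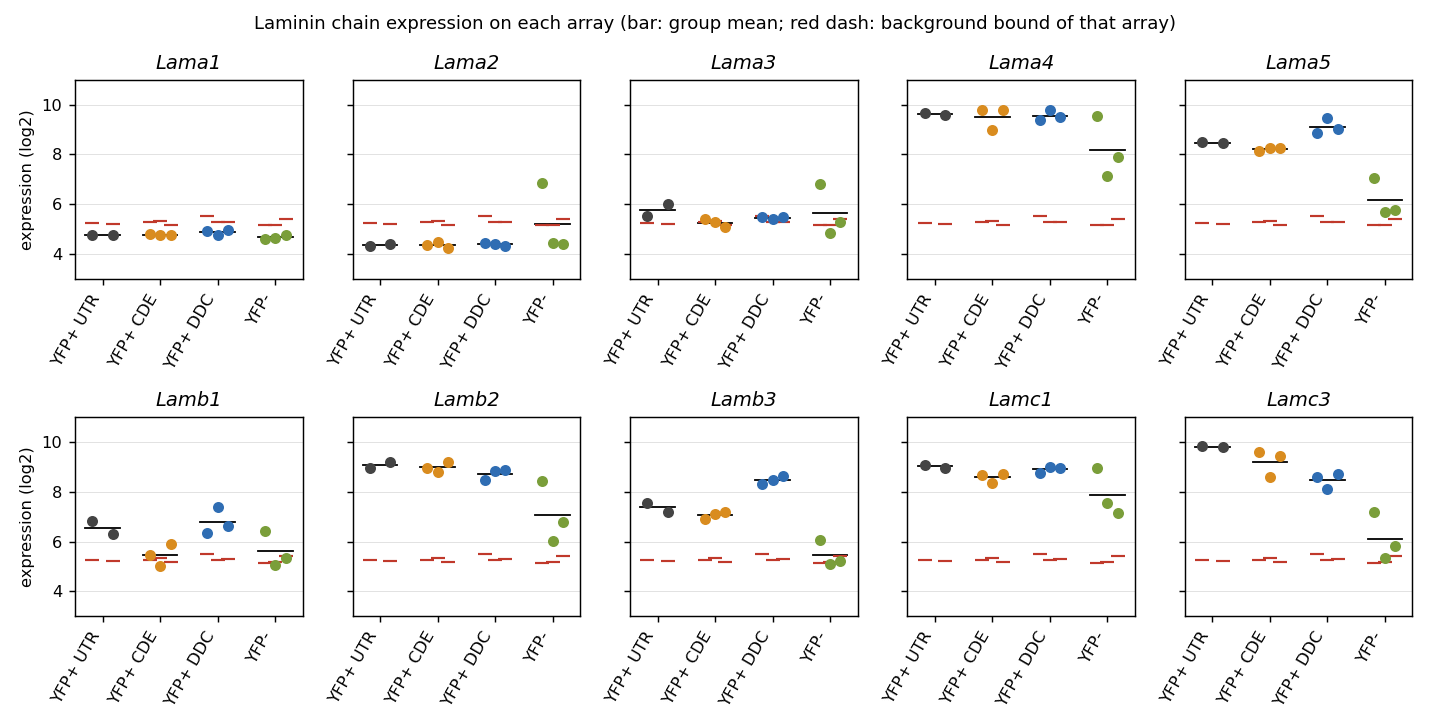
Log2 value of each laminin chain and of Lamc3 on every array, 1 point per array, grouped as YFP+ CDE, YFP+ DDC, YFP+ UTR and YFP-; black bars are group means and red dashes the background bound of each array. Lamb3 is highest on the 3 DDC arrays, and YFP- replicate 1 is the highest YFP- array in every panel except Lama1.

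The first comparison asked which chains marked the YFP+ cells of untreated liver. Lama5, Lamb2 and Lamb3 were higher in YFP+ UTR than in YFP- cells, and no chain was called lower. Lama5 was higher by 2.30 ± 0.37 (SE), a 4.93-fold change with an adjusted p of 0.00248. Lamb3 was higher by 1.90 ± 0.27, a 3.73-fold change with an adjusted p of 0.0013, against a YFP- group in which 1 of 3 arrays was above background. Lamb2 was higher by 2.01 ± 0.55, a 4.03-fold change with an adjusted p of 0.0331. So 3 of 9 chains were called higher, beside 10.4% of all genes called higher and 8.46% called lower. The median difference was 1.14 over the 9 chains and -0.01 over all genes.

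The other chains did not pass. Lama4 differed by 1.44 ± 0.57 (adjusted p = 0.118), Lamc1 by 1.14 ± 0.42 (adjusted p = 0.0965) and Lamb1 by 0.94 ± 0.45 (adjusted p = 0.194). Lama3 differed by 0.11 ± 0.47, Lama1 by 0.10 ± 0.10 and Lama2 by -0.85 ± 0.61, which became -0.04 without YFP- replicate 1. The arrays of the groups did not overlap for 6 chains that were higher in UTR (Lama1, Lama4, Lama5, Lamb2, Lamb3 and Lamc1), beside 22.5% of all genes, and for 1 that was lower, Lama2, beside 20.5%. For Lama1 every array of both groups was below the bound, so its difference lies among background values. For Lama2 every array but YFP- replicate 1, at 6.84, was below it. Its separation of the UTR arrays from the other YFP- arrays thus also lies among background values.

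YFP- replicate 1 set much of the spread behind these values. Without it, 7 chains were called higher, beside 2911 of all 23185 genes in place of 2412. Lama3 joined at 0.70 (adjusted p = 0.036), Lama4 at 2.12 (adjusted p = 0.00142), Lamb1 at 1.35 (adjusted p = 0.0325) and Lamc1 at 1.67 (adjusted p = 0.000186). YFP- replicate 1 also carried biliary, stromal and endothelial markers together, and their part in its laminin values was not tested. Without replicate 1, Lama5 was higher by 2.75, Lamb3 by 2.20 and Lamb2 by 2.69. Without YFP- replicate 2, Lamb2 was higher by 1.48 (adjusted p = 0.0468) and Lama4 differed by 0.92 (adjusted p = 0.226). The Lamb2 call was lost on leaving out any 1 of 8 of the 11 arrays and held without YFP+ DDC replicate 1, YFP- replicate 1 or YFP- replicate 2. In a fit of the 5 arrays of these groups alone none of the 9 chains was called, with adjusted p-values of 0.0741 for Lama5, 0.0614 for Lamb3 and 0.226 for Lamb2. Lamc3 was higher by 3.70 ± 0.49 (adjusted p = 0.001), a 12.96-fold change, and kept an adjusted p of 0.0463 in that smaller fit.

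Against the mean of the 3 YFP+ groups, the YFP- cells were lower in 5 of 9 chains, beside 16.3% of all genes that were higher in YFP+. This mean mixes the label with the diets, since every YFP- sample was untreated. Lama5 differed by 2.43 ± 0.27 (adjusted p = 0.000182), Lamb3 by 2.17 ± 0.20 (adjusted p = 6.08e-05) and Lamb2 by 1.86 ± 0.41 (adjusted p = 0.0082). These 3 were also the chains whose YFP+ arrays all exceeded all YFP- arrays, beside 13.9% of all genes. Lama4 at 1.38 ± 0.43 (adjusted p = 0.0363) and Lamc1 at 0.96 ± 0.32 (adjusted p = 0.0457) lay near the threshold. The Lama4 call was lost on leaving out any 1 of 9 of the 11 arrays and the Lamc1 call any 1 of 10. The Lama4 call held only without YFP+ CDE replicate 2 or YFP- replicate 1, and the Lamc1 call only without YFP- replicate 1.

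**Figure D2:**
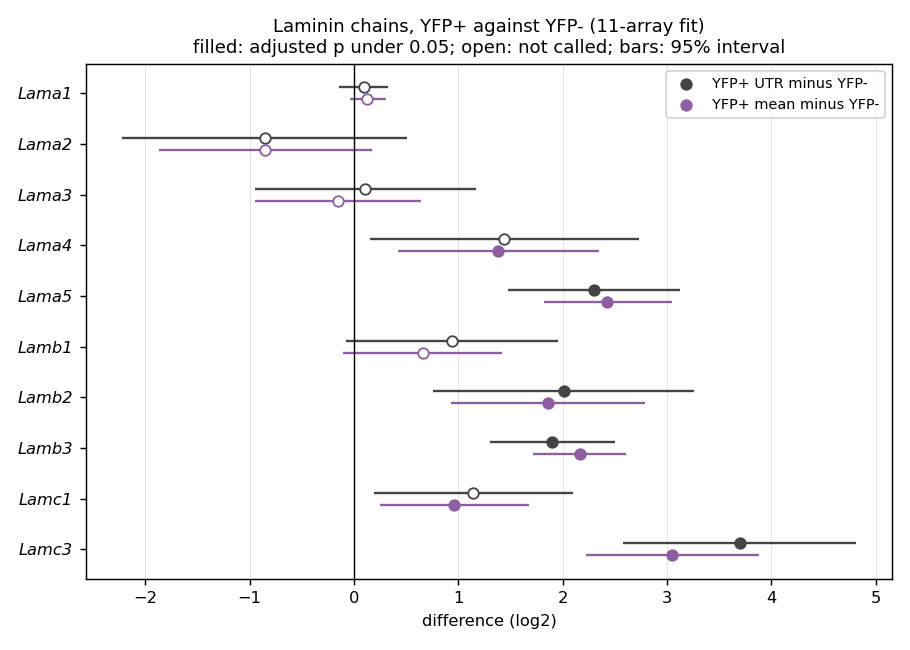
Difference in log2 value between YFP+ and YFP- cells for each chain and Lamc3, for the untreated YFP+ group and for the mean of the 3 YFP+ groups, with 95% intervals; filled points passed the adjusted threshold of 0.05. Lama5, Lamb2, Lamb3 and Lamc3 are filled in both comparisons, and Lama4 and Lamc1 only against the mean.

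The next comparisons asked how the diets altered the chains within YFP+ cells. DDC cells held more Lamb3 than CDE cells and untreated cells, and more Lama5 than CDE cells. Cell markers shifted beside these chains without any cholangiocyte or macrophage marker passing the test. The mean of the cholangiocyte markers was 9.94, 10.13 and 10.08 on the DDC arrays, wholly above 9.61, 9.70 and 9.75 on the CDE arrays, and 7 of 8 of them had a higher mean in DDC (median difference 0.22). Of 8 macrophage markers 0 and of 10 hepatocyte markers 2 had a higher mean in DDC than in CDE, with medians of -0.47 and -0.30. Their part in the laminin differences was not tested.

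Lamb3 was higher in DDC than in CDE by 1.41 ± 0.13, a 2.65-fold change with an adjusted p of 0.0103. This call held on leaving out each of the 8 arrays in turn, with adjusted p-values from 0.0141 to 0.0476. Lama5 was higher by 0.88 ± 0.15, a 1.84-fold change with an adjusted p of 0.0396. Its call was lost on leaving out any 1 of the 8 arrays, with differences of 0.71 to 1.01 and adjusted p-values of 0.0512 to 0.141. Thus 2 of 9 chains were called higher, beside 0.418% of all genes. In a fit of all 11 arrays neither was called, with adjusted p-values of 0.115 for Lamb3 and 0.534 for Lama5. Lamb1 differed by 1.33 ± 0.31 with a 95% interval of 0.62 to 2.05 that is not adjusted for the number of genes, and its adjusted p of 0.095 missed the threshold. Lamc1 differed by 0.31 ± 0.12, Lamb2 by -0.26 ± 0.15 and Lama4 by 0.04 ± 0.22. DDC arrays lay wholly above CDE arrays for Lama5, Lamb1, Lamb3 and Lamc1, beside 9.64% of all genes.

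Against untreated cells, Lamb3 was the 1 chain called in DDC cells, beside 0.0949% of all genes called higher. It was higher by 1.11 ± 0.15, a 2.15-fold change with an adjusted p of 0.0463. The call held without YFP+ UTR replicate 1 (adjusted p = 0.0385) and was lost without any 1 of the other 7 arrays. Over these fits the difference ran from 0.93 to 1.29 and the adjusted p up to 0.242. In the fit of all 11 arrays the adjusted p was 0.598. Lama5 differed by 0.63 ± 0.17 (adjusted p = 0.224), Lamb2 by -0.36 ± 0.17 (adjusted p = 0.514) and Lamb1 by 0.24 ± 0.35 (adjusted p = 0.867). DDC arrays lay wholly above UTR arrays for Lama5 and Lamb3, beside 12.7% of all genes, and wholly below them for Lama3 and Lamb2, beside 11.8%. Lamc3 differed by -1.34 ± 0.30 and did not pass (adjusted p = 0.156).

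CDE cells gave no call against untreated cells, for the laminins or for any gene (0% of 23185 by limma, with 1492 genes at an unadjusted p under 0.05). The median difference over the 9 chains was -0.25, beside 0.00 over all genes. The 7 chains other than Lama1 and Lama2, which were below background in both groups, had a lower mean in CDE. Lamb1 differed by -1.09 ± 0.35, with an unadjusted 95% interval of -1.89 to -0.29 and an adjusted p of 0.687. Lama3 differed by -0.50 ± 0.16 (adjusted p = 0.687), Lamc1 by -0.42 ± 0.14 (adjusted p = 0.692) and Lamb3 by -0.30 ± 0.15 (adjusted p = 0.812). CDE arrays lay wholly below UTR arrays for Lama3, Lama5, Lamb1 and Lamc1, beside 10.5% of all genes. The CDE and DDC comparisons share the same 2 UTR arrays. Hepatocyte markers had a mean of 9.26 on YFP+ CDE replicate 2 and 8.40 to 8.72 on the other YFP+ arrays, and their part in the CDE values was not tested.

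**Figure D3:**
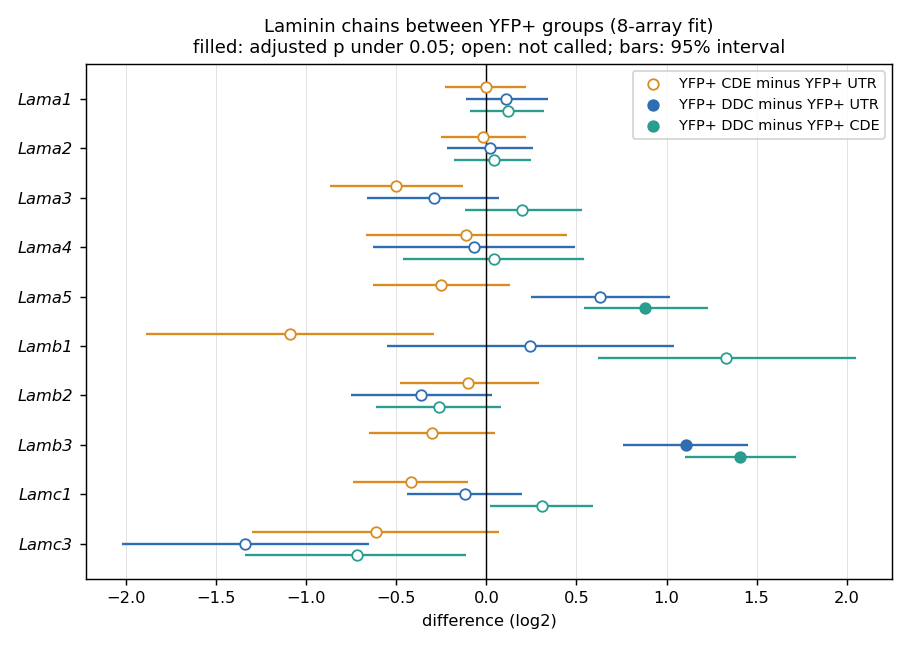
Difference in log2 value between the YFP+ groups for each chain and Lamc3, with 95% intervals; filled points passed the adjusted threshold of 0.05. Lamb3 is filled for DDC against UTR and for DDC against CDE, and Lama5 for DDC against CDE; no CDE against UTR point is filled.

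Promoter windows were read for the chains that moved with diet. RefSeq promoters of build GRCm38.p6 were matched for 5 of 9 chains (Lama2, Lama5, Lamb1, Lamb2 and Lamb3), Lamb3 with 2 windows, each of 300 bases around an annotated gene start. On both strands, 6 motifs were sought after the chains' values had been seen. The stretches below belong to Lamb3 and Lama5, the 2 chains called between the diets. Capitals mark the match, to GGAATG (the TEAD motif, on the opposite strand) and to CAGCTG (an E-box) for Lamb3, and to GGGCGG (the SP1 motif) for Lama5.
Lamb3, chr1:193302064-193302093, plus strand: gaggggaccccaCATTCCcagggagctctc
Lamb3, chr1:193301957-193301986, plus strand: agatgggcgtggCAGCTGccagattcctga
Lama5, chr2:180225901-180225930, minus strand: ccaggcgggcctGGGCGGggcctgacgtcc

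Shares are over the 32851 promoter windows searched, which are not every window of the genome. The TEAD letters occurred once in 1 Lamb3 window and in 14.7% of these windows. The E-box letters occurred once in the other Lamb3 window and in 16.3% of these windows. The Lama5 window held 4 matches to the SP1 letters, that of Lamb1 held 2 and that of Lama2 held 1, and 35.7% of these windows hold them. TGACG (the core of a CRE site) occurred once in the Lama5 window and once in that of Lamb2, and in 20.8% of these windows. No matched chain's window held TGANTCA (the AP-1 motif, in 7.8% of these windows) or CAAAGTCCA (an HNF4 motif, in 0.5%). Lamb3 and Lama5, the chains higher in DDC than in CDE, shared none of the 6 motifs in these windows.

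The chains above background set which trimers each group's transcripts could supply. Of 13 trimers checked against the 9 chains and Lamc3, laminin-421, laminin-521, laminin-423 and laminin-523 had all 3 chains above background on every array of every group. YFP+ CDE and YFP- had these 4. YFP+ DDC had 6, with laminin-411 and laminin-511 added, since Lamb1 was above background on all 3 DDC arrays and on 2 of 3 CDE arrays. YFP+ UTR had 8, with laminin-311 and laminin-321 added through Lama3. In that group a chain had to pass on 2 arrays, and in the others on 3. On DDC replicate 1, Lama3 read 5.48 under a bound of 5.51, the highest bound of all arrays. On UTR replicate 1 it read 5.51 over a bound of 5.26, and on UTR replicate 2 it read 6.0 over a bound of 5.22. Laminin-111 and laminin-121 lacked Lama1 in every group, and the Lama2 laminins 211, 221 and 213 lacked Lama2 in every YFP+ group.

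These sets moved with the bound. At the 99th percentile of the receptor features (6.83 to 7.39), the 3 YFP+ groups each kept the same 4 trimers and YFP- kept 0. At the array median (5.63 to 5.76), CDE had 4, DDC and UTR had 6 each, and YFP- had 2. At the 95th percentile bound the sets of the YFP+ groups differed through Lamb1 and Lama3, and neither was called between any YFP+ groups. Lamb3, which was called, is a chain of none of the 13 trimers checked. Transcripts above background in a pool of cells do not show that 1 cell held all 3 chains, nor that protein was assembled.

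**Figure D4:**
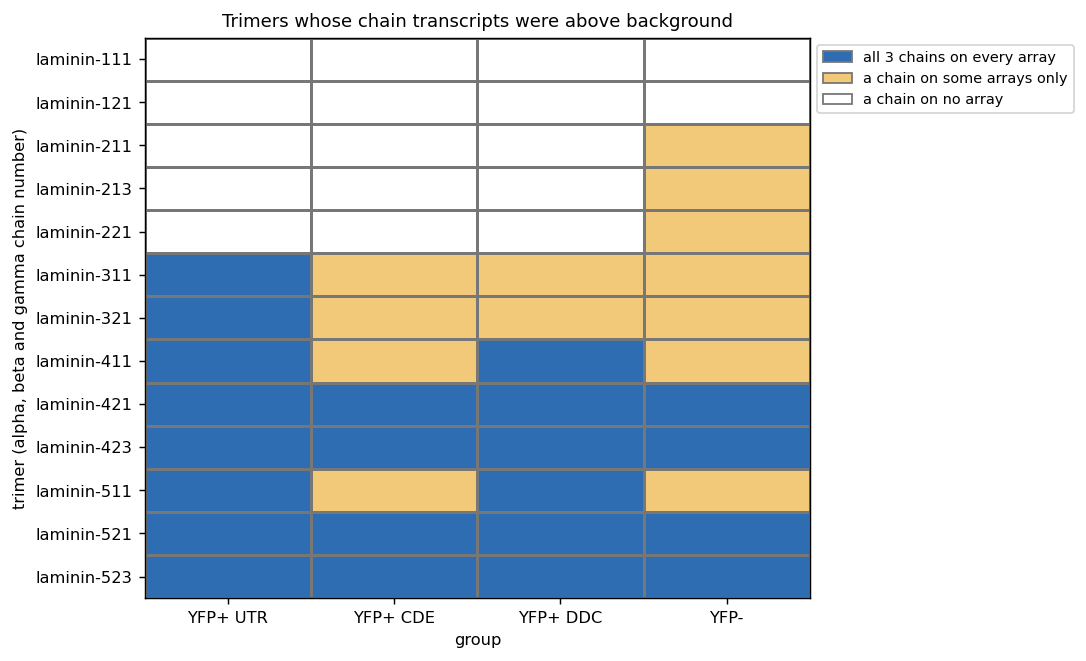
Each of the 13 laminin trimers against the 4 groups, marked by whether all 3 chain transcripts were above the background bound on every array of the group, on some arrays, or on none. CDE and YFP- have 4 complete trimers, DDC has 6 and UTR, with 2 arrays in place of 3, has 8.

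Genes that receive laminin were called between YFP+ and YFP- cells and not between the YFP+ groups. Of 12 laminin receptor genes, 7 were higher and 1 was lower in YFP+ UTR than in YFP- cells, with a median difference of 1.81, beside 10.4% and 8.46% of all genes. Without YFP- replicate 1, 8 were higher and 1 lower, beside 2911 genes higher and 2906 lower of all 23185. Itga3, the integrin α3 subunit that pairs with β1 to bind laminin-511, was higher by 4.61 ± 0.86 (adjusted p = 0.00531), against a YFP- group with 1 of 3 arrays above background. Without YFP- replicate 1, Itga3 was higher by 5.72. Bcam, a surface receptor for laminin α5, was higher by 3.54 ± 0.69 (adjusted p = 0.00675), or 4.40 without that array. Itgb4, the integrin β4 subunit of hemidesmosomes, was higher by 2.72 ± 0.34 (adjusted p = 0.000746), with 2 of 3 YFP- arrays above background, and the syndecan Sdc4 by 2.23 ± 0.39 (adjusted p = 0.00391). Itga1, a collagen and laminin receptor subunit named after its value was seen, was lower by 1.94 on the log2 scale (difference -1.94 ± 0.40, adjusted p = 0.00819). Between the YFP+ groups, the largest receptor difference was that of Itga2, at 1.57 ± 0.29 for DDC against UTR (adjusted p = 0.103). Itga2 differed by 0.94 ± 0.29 for CDE against UTR (adjusted p = 0.684) and by 0.63 ± 0.26 for DDC against CDE (adjusted p = 0.302).

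Of 20 other basement membrane genes, 8 were higher and 1 was lower in YFP+ UTR than in YFP- cells, with a median of 0.34, beside the same 10.4% and 8.46% of all genes. Without YFP- replicate 1, 10 were higher and 1 lower, beside the same 2911 genes higher and 2906 lower of all 23185. Agrn, the laminin-binding proteoglycan agrin, was higher by 3.64 ± 0.60 (adjusted p = 0.00295), or 4.44 without that array, and Smoc1 by 2.77 ± 0.23 (adjusted p = 0.000106). Nid1, the nidogen that links the laminin network to collagen IV, was lower (-2.53 ± 0.48, adjusted p = 0.00603; -1.90 without it), and Col18a1 was higher by 2.18 ± 0.27 (adjusted p = 0.000728). Between YFP+ groups, 1 gene of this list was called higher in each DDC comparison, beside 0.0949% of all genes against UTR and 0.418% against CDE. Nid1 was higher in DDC than in UTR by 1.14 ± 0.13 (adjusted p = 0.0308), and Agrn was higher in DDC than in CDE by 0.57 ± 0.10 (adjusted p = 0.0386). With all 11 arrays in the fit their adjusted p-values were 1.0 and 0.929.

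Of 8 measured genes that glycosylate dystroglycan for laminin binding, 3 were higher in YFP+ UTR than in YFP- cells, with a median of 0.49, beside 10.4% of all genes. They were Pomgnt2 by 2.72 ± 0.43 (adjusted p = 0.00252, with 2 of 3 YFP- arrays above background), Pomt1 by 1.02 ± 0.18 (adjusted p = 0.0039) and Pomk by 1.00 ± 0.29 (adjusted p = 0.0415; 0.75 and 0.0648 without YFP- replicate 1, 0.93 and 0.0792 without YFP- replicate 2). None of 3 hemidesmosome partners passed, with a median of 0.10. Plec, the linker plectin, differed by 0.98 ± 0.46 (adjusted p = 0.179) and Dst by 0.10 ± 0.40 (adjusted p = 0.896). Plec passed without YFP- replicate 1 (1.41, adjusted p = 0.0257), and Dst was lower without YFP- replicate 2 (-0.42, adjusted p = 0.0372). None of 6 netrins, which share laminin's short-arm domains, passed either, with a median of 0.09. Ntn4 differed by -0.65 ± 0.65 (adjusted p = 0.546) and Ntng2 by 0.44 ± 0.48 (adjusted p = 0.582). Ntn4 was lower without YFP- replicate 2 (-1.38, adjusted p = 0.0479). Between YFP+ groups these 3 lists gave no call.

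Marker lists gave the cell makeup beside these values. In YFP+ UTR against YFP- cells, 8 of 8 cholangiocyte markers were higher (median 4.14), and 9 of 10 endothelial markers were lower (median -5.27), as were 4 of 8 macrophage markers and 3 of 7 leukocyte markers. Of 10 hepatocyte markers 3 were higher and 1 lower, of 12 stromal markers 1 was higher and 1 lower, and of 5 mesothelial markers 2 were higher. The hepatocyte markers split, as genes named after their values were seen show. Alb had a mean of 12.4 in YFP+ UTR and 11.6 in YFP- cells, and Ttr 12.95 and 11.42. Cyp2e1 had 5.23 and 8.07, and Cps1 was above background on no YFP+ array. Between YFP+ groups, 2 markers passed. Rgs5, listed here as a pericyte gene, was higher in DDC than in UTR by 1.68 ± 0.20 (adjusted p = 0.0308). It was the 1 of 12 stromal markers to pass there, and the list's median difference was 0.02. Its mean was 9.95 in UTR, 11.23 in CDE and 11.63 in DDC, against 6.92 in YFP- cells. Rgs5 was also the 1 stromal marker higher in YFP+ UTR than in YFP- cells (3.04 ± 0.71, adjusted p = 0.0163). The list's median in that comparison was -0.74, and Dcn was the marker called lower (-3.98 ± 0.73, adjusted p = 0.00487). From 5 to 8 of the 12 stromal markers were above background on each YFP+ array. Alb, albumin, was lower in DDC than in CDE (-0.73 ± 0.09, adjusted p = 0.0162). The part of these cell types in the laminin differences was not tested.

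The genes with patterns most like each called chain were sought among 13543 genes by Pearson correlation, as a description over arrays that share their groups. Over the 8 YFP+ arrays, Lamb3 was most like Myh9, non-muscle myosin heavy chain (r = 0.997), Cxcl17 (r = 0.988) and Prss35 (r = 0.988). Lama5 was most like Inava (r = 0.988), Zc3h12a (r = 0.977) and Nisch (r = 0.974). Over all 11 arrays Lama5 was most like Ltbp3, Cldn2 and Sftpd, each at r = 0.99, and Lamb3 was most like Inava (r = 0.982), Ankrd24 (r = 0.978) and Lmna (r = 0.975). Inava was thus near both chains, over different sets of arrays. Lamb2 was most like Ctdsp2 (r = 0.989), Magi3 and Nfia (both r = 0.988). Lama4 was most like Mageh1 (r = 0.984), Ptprg (r = 0.979) and Agap1 (r = 0.976), and Lamc1 was most like Fstl1 (r = 0.973), Igf1r and Bcar1 (both r = 0.972). Named after its values were seen, Lama2 tracked the matrix genes Mfap5 (r = 0.994), Fmod (r = 0.988) and Htra3 (r = 0.985) over the 11 arrays, a relation set by the 1 array on which Lama2 was high.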

How the data were processed

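RNA of 11 sorted-cell samples was measured on MoGene 2.0 ST arrays. The deposited table holds log2 expression values, 1 per feature and array, made by the authors; their normalization and summary method are unstated, and the log base was inferred from the range of 2.55 to 13.57. Of 25206 features, the platform annotation gave 23185 a single symbol and 0 several; the 2021 it does not list were left out. Some genes and trimers are not reported here. The number of arrays limits the precision.

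A model of group means (limma 3.58.1, R 4.3.3, lmFit and eBayes) was used with Benjamini-Hochberg adjustment over all 23185 genes: all 11 arrays for YFP+ against YFP-, and the 8 YFP+ arrays among YFP+ groups, since YFP- arrays vary more. The laminin chains, gene lists and that choice were made with earlier results of these data known. Named genes were all 9 chains and Lamc3, up to 4 called genes of each list by size of difference (up to 2 where none was called), up to 3 markers per cell type, and for each called chain the 3 genes with the highest correlation; genes outside this rule are said to be. Alternatives were the arrays in the fit, a replicate block, quantile normalization, a filter on dim genes, trended robust or group-weighted spread, another background bound and leaving out each array; the lists' values without each YFP- array were added after seeing the data. The fits were tested on simulated data with 200 of 23185 genes changed. They called 53% of changes of 1 log2 unit for UTR against YFP- and 63% for the YFP+ mean against YFP-. For CDE against UTR, DDC against UTR and DDC against CDE they called 78%, 80% and 78%. These shares are averages over randomly drawn genes and do not give the share for a single chain. For DDC against CDE, the SE was 0.31 for Lamb1 and 0.13 for Lamb3. Each simulated gene had 1 spread for all arrays, whereas the real YFP- arrays vary more. The shares against YFP- thus hold for equal spread only.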

Additional observations from a re-analysis of the deposited data

Results flagged for a closer look

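The difference between DDC and CDE cells equals that between their contrasts with untreated cells, since both would be set against the same untreated arrays. The labels give 5 weeks for the DDC diet and no duration for the CDE diet, so diet and time on it cannot be told apart. By limma, Lamb3 was higher in DDC than in CDE by 1.41 (adjusted p = 0.0103), and was not called with all 11 arrays in the fit (adjusted p = 0.115). Lama5 was higher by 0.88 (adjusted p = 0.0396), a call lost on leaving out any 1 of the 8 arrays and with all 11 arrays in the fit (adjusted p = 0.534), and Lama5 was not called against untreated cells for either diet.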

How the results depend on the processing

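No chain that was called reversed direction under any alternative. Of 740 values of the 9 chains and Lamc3 under alternatives, 657 kept their direction and side of the threshold, 23 changed sign without passing in either setting, 55 no longer passed and 5 newly passed. For UTR against YFP-, the 5 arrays alone gave 0 chains and 931 genes against 3 and 4373, and leaving out 1 array gave 2 to 7 chains and 2306 to 5817 genes. For the YFP+ mean, with 5 chains and 7083 genes, group weights gave 3 chains and 4179 genes, and leaving out 1 array gave 3 to 6 chains. For CDE against UTR, with 0 genes, the dim-gene filter, trended robust spread and group weights gave 1 gene each, and leaving out 1 array gave 0 to 46, the 46 without YFP+ UTR replicate 1. For DDC against UTR, with 1 chain and 37 genes, all 11 arrays gave 0 chains and 0 genes, group weights gave 0 chains, and leaving out 1 array gave 0 to 1 chains and 0 to 103 genes. For DDC against CDE, with 2 chains and 270 genes, all 11 arrays gave 0 chains and 1 gene, and leaving out 1 array gave 1 chain each time and 16 to 211 genes; quantile normalization split the genes 130 higher and 141 lower in place of 97 and 173. At the 99th percentile bound, 2 YFP- chains in place of 4 were above background. Replicate numbers were taken as a block although they did not pair the arrays (correlations of -0.072 to 0.131 among YFP+ arrays): the replicate block gave 2 chains for UTR against YFP-, 4 for the YFP+ mean, 0 chains and 0 genes for DDC against UTR, and 1 chain and 61 genes for DDC against CDE. The causes were not tested.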
